A study of Mus musculus with 9 samples.

Results

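Broad promoter regions were taken from the peaks of 6 chromatin immunocleavage (ChIC-Seq) libraries of mouse oviductal smooth muscle cells. All peaks on chromosomes 1 to 19 were merged where they overlapped by at least 1 bp, which gave 81587 regions. Of these, 12655 held a peak in all 6 lists and 8195 of the 12655 had a midpoint within 2 kb of a transcript start in GENCODE release 21 for mouse. The 266 of the 8195 that were at least 1500 bp wide are described here as broad (3.25%), and the other 7929 as narrower promoter regions. The members were thus chosen by measured values, namely the presence of a peak in all 6 lists, the merged width and the position, so these are given as descriptions and were not tested.

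The cells were primary oviductal muscle cells of wild-type mice, aged 8 to 12 weeks, taken on day 2 of pregnancy after digestion of the oviduct, filtering and a short culture. For each library, 50000 fixed cells received protein A-micrococcal nuclease carried by an antibody to PBRM1 (also called BAF180) or to BRG1, with 3 libraries for each antibody. The submitters also mention knockout mice, but all 6 libraries here came from wild-type cells, so the design compares antibodies. A further 3 samples with control IgG were not analysed here.

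PBRM1 carries bromodomains, which bind acetylated histones, and belongs to PBAF, a variant of the SWI/SNF remodeler, whereas BRG1 is the motor ATPase of PBAF and of other SWI/SNF variants. These complexes move or evict nucleosomes, and active mammalian promoters usually carry a nucleosome-depleted stretch around the start of transcription. Many such promoters lie in CpG islands, in which CpG dinucleotides have been kept while most of the genome has lost them.

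Windows of 200 bases (170 before and 30 from the start site on, gene strand, RefSeq sequence of GRCm38) are shown for the members on which the results below turn. Capitals mark matches, on either strand, to the 11 short sequences searched for and described later. The first 3 are the widest members, and *Gm26917* is also the highest. The next 2 are the other members with the highest pileup. *Herpud1* and *Gm10717* had the largest difference between the antibodies in each direction. *Pgr* and *Coil* were added after their values were seen, and the *Coil* window is centred on the region, since the start of *Coil* lies outside it.
*Gm26917*, chr17:39844904-39845103, plus strand: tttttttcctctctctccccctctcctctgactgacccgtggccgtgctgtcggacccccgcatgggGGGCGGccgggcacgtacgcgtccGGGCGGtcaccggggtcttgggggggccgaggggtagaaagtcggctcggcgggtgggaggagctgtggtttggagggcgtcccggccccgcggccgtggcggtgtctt
*Ppp2r3d*, chr9:124424125-124424324, minus strand: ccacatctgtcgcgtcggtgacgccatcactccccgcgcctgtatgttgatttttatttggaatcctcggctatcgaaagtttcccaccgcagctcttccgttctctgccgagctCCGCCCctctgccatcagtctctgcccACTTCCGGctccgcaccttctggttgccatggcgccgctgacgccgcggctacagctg
*Tmem43*, chr6:91473589-91473788, plus strand: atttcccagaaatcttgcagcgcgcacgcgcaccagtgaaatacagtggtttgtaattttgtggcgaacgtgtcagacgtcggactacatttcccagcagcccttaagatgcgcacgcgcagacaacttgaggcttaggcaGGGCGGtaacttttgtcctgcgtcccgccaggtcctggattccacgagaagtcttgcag
*Hjurp*, chr1:88277477-88277676, minus strand: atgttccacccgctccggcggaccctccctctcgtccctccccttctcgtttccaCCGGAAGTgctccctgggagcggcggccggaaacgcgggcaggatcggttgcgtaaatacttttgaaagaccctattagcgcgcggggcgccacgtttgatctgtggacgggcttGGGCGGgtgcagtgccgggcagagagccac
*Ddx54*, chr5:120612957-120613156, plus strand: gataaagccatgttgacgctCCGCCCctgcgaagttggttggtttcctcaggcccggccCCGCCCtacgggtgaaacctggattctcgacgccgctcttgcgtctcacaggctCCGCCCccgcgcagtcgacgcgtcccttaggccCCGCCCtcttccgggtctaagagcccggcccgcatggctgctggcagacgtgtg
*Herpud1*, chr8:94386325-94386524, plus strand: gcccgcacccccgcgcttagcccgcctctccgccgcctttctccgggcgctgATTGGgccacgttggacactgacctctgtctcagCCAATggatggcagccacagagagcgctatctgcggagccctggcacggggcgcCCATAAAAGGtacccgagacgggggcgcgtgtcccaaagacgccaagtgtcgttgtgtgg
*Gm10717*, chr9:3025247-3025446, plus strand: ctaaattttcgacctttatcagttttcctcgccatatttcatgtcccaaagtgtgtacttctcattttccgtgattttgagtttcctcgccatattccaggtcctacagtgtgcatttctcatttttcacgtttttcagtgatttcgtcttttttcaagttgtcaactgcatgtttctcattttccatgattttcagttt
*Pgr*, chr9:8900298-8900497, plus strand: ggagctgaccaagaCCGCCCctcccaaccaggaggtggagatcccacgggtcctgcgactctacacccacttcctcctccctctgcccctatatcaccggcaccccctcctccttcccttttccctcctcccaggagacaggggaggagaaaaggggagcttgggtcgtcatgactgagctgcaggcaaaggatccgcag
*Coil*, chr11:88968550-88968749, plus strand: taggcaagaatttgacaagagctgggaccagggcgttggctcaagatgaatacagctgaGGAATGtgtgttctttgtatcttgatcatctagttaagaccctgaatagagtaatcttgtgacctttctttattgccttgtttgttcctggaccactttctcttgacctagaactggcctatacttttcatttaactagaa
The windows differ in base composition. That of *Ddx54* held 4 GC boxes and that of *Gm26917* held 2. The *Herpud1* window held 2 CCAAT boxes and a CArG box, the sequence known to be bound by serum response factor. Its GC content was 66.5%, with 19 CpG dinucleotides. The *Gm10717* window held no match, 6 CpG dinucleotides and a GC content of 36.5%, and the *Coil* window held 1 CpG dinucleotide.

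The broad regions had a median width of 1633 bp (interquartile range 1553.25 to 1736.5 bp) and together covered 447.8 kb. Only 19 reached 2000 bp. The widest, at *Gm26917*, measured 3695 bp, and the next, at *Ppp2r3d*, which encodes a regulatory subunit of protein phosphatase 2A, measured 2384 bp. Widths formed a continuous tail rather than a separate group. Just below the threshold stood the promoter regions of *Rab29* and *Gbp3* at 1497 bp and *Cyb561a3* at 1498 bp, and just above it *Tax1bp3* and *Mrpl51* at 1500 bp and *Ccdc9* at 1501 bp.

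**Figure D1:**
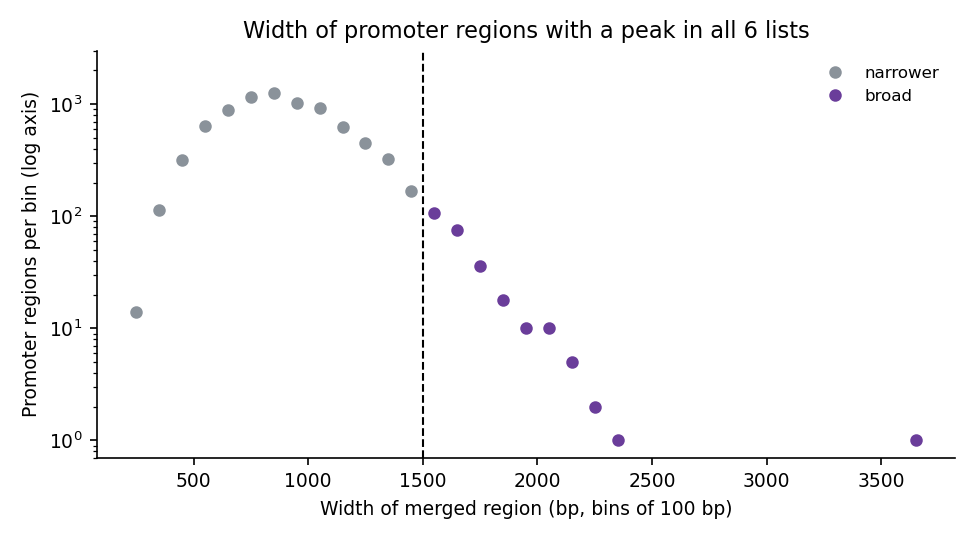
Width of the 8195 promoter regions with a peak in all 6 lists, in bins of 100 bp (horizontal axis, bp), against the number of regions in each bin (vertical axis, log scale); each point is a bin with at least 1 region. The counts fall smoothly across the dashed line at 1500 bp, and a single region, at *Gm26917*, stands apart at 3695 bp.

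The merged width was mostly assembled from several lists. A broad region held a median of 8 peaks over the 6 libraries, and its longest single peak had a median length of 1379 bp, or 80.9% of the region. In 74 of the 266 members (27.8%), 1 peak alone was at least 1500 bp long. BRG1 replicate 1 held the longest peak of 79 members, and the other 5 libraries held it in 33 to 41 members each. Leaving that library out left 190 broad regions, the lowest of the 6 counts with 5 lists.

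Joining the antibodies mattered for the width. With the 3 PBRM1 lists alone, 102 members still held a run of peaks of at least 1500 bp, and with the 3 BRG1 lists alone, 99 did. In 24 it was reached with each antibody by itself, and 89 reached it only when peaks of both antibodies were joined. PBRM1 peaks covered a median of 87.2% of a region, BRG1 peaks 87.5%, and both together shared 69.3%. A base covered by a peak in each of the 6 libraries was present in all but 33 members, and such bases made up a median of 25.3% of the width. In the lists that the authors called on pooled replicates, 231 members held exactly 1 PBRM1 peak and 235 exactly 1 BRG1 peak.

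Around the start of the protein-coding gene that named the region (243 of the 266 members), the regions reached a median of 788 bp upstream and 849 bp downstream. The downstream arm was the longer in 143 of the 243 (58.8%), against 47.2% of the 7439 narrower promoter regions named by a coding gene. At the start site itself, 66.3% to 73.3% of the broad regions were under a peak in the PBRM1 libraries and 80.2% to 86.8% in the BRG1 libraries. The groups did not overlap there. They also did not overlap in the narrower regions (75.7% to 79.8% with PBRM1 and 83.9% to 86.6% with BRG1). At 500 bp upstream, PBRM1 peaks covered 51.0% to 55.1% and BRG1 peaks 49.4% to 54.7% of the broad regions, and the groups overlapped. These shares were not tested.

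**Figure D2:**
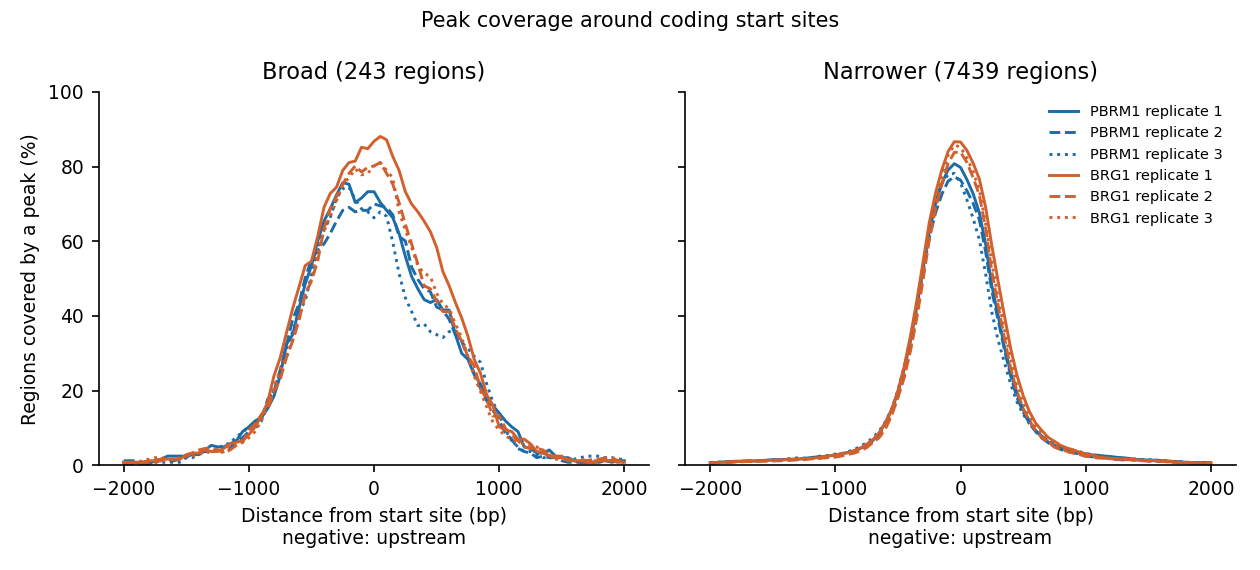
Share of regions covered by a peak (vertical axis, percent) by distance from the start site of the naming coding gene (horizontal axis, bp), for broad regions (left) and narrower regions (right); each line is 1 library, blue for PBRM1 and orange for BRG1. Over the start site of broad regions, the 3 BRG1 lines (80.2% to 86.8%) lie above the 3 PBRM1 lines (66.3% to 73.3%), and the lines meet toward the edges.

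Where a library divided a broad region into more than 1 peak, the peaks usually lay on both sides of the start. Of the 69 to 99 coding members so divided in a library, 70.7% to 75.9% had a summit upstream and another downstream of the start, and the ranges of the antibodies overlapped. Members were chosen by a midpoint within 2 kb of a start, so such a split partly follows from the choice. It was not counted in the narrower regions. The summit of the highest peak lay within 250 bp of the start in 50.6% to 56.0% of the members with PBRM1 and in 59.3% to 62.6% with BRG1. In the narrower regions the share was 75.4% to 77.3% with PBRM1 and 79.6% to 80.4% with BRG1. The median signed distance of the summit was −91.0 ± 23.64 bp with PBRM1 and −67.7 ± 11.02 bp with BRG1 (SD, n = 3 libraries each). The difference of 23.3 bp did not exceed the spread between libraries (exact permutation test, two-sided, p = 0.3, where 0.1 is the smallest p that 3 against 3 libraries can give). With the mean of all summits of a library in place of the highest, the difference turned to −37.7 bp, at the smallest p of 0.1.

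The members lay near the starts of 396 genes, of which 302 were protein-coding, or 1.45% of the 20780 coding genes on these chromosomes. They were found on each of the 19 chromosomes, with the most on chromosome 11 (34 members). Another 23 members were named by a gene of another kind, 14 of them by long intergenic noncoding RNAs. Coding starts on opposite strands lay within 2 kb of the midpoint of 53 members (19.9%) and of 12.4% of the narrower regions. Such pairs included *Tmem43* with *Chchd4*, which encodes a mitochondrial import receptor, and *Mrpl51*, for a mitochondrial ribosomal protein, with the condensin gene *Ncapd2*. Counted as starts inside the region, the share was 18.05% in broad regions and 19.8% in the 698 promoter regions between 1250 and 1500 bp, so it did not set the broad regions apart from those just below the threshold.

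The widest members named by coding genes had varied functions. *Tmem43* (2273 bp) encodes an inner nuclear membrane protein, *Thsd7a* (2225 bp) a thrombospondin-repeat protein, and *Crlf2* (2196 bp) a receptor chain for thymic stromal lymphopoietin. *Cdkn2c* (2137 bp), an inhibitor of the cyclin D-dependent kinases, followed, with *Cnksr3* (2122 bp), the sideroflexin gene *Sfxn3* (2101 bp), the splicing-factor kinase gene *Clk3* (2094 bp) and *Acbd5* (2071 bp), for a peroxisomal acyl-CoA binding protein. The regions were not centred alike. The *Crlf2* region began 30 bp upstream of the start and ran 2165 bp downstream, whereas that of *Cdkn2c* ran 1853 bp upstream and 283 bp downstream.

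Of 15 gene lists, 10 had no gene at a broad region. Over all coding genes, 1.45% had a broad and 39.2% a narrower region, so a short list can be without a broad region at that share. A promoter peak is not expression. None of the 19 annotated smooth muscle genes had a broad region, and 11 of them had a narrower one. Likewise, none of the 25 prostaglandin genes, 26 SWI/SNF subunit genes and 78 cytoplasmic ribosomal protein genes had a broad region, and 11, 16 and 53 of them had a narrower one. None of the 18 oviduct epithelial, 12 endothelial and 12 immune cell markers listed had a promoter region of either width in all 6 lists. The same held for 1127 olfactory receptor genes. These marker lists are short and do not hold every marker. *Cd14*, *Thbd* and *Itga2b*, also used as markers of blood or endothelial cells, are outside them and each named a broad region. Of 38 signalling feedback and growth factor genes, none had a broad and 17 a narrower region, and of 26 chromatin-modifier genes *Ezh2* had a broad and 12 a narrower region. The homeobox genes, matched by symbol, had none that was broad and 7 of 104 that were narrower.

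Replication-dependent histone genes, which encode the histones made in S phase, were near broad regions in 8 of 67 cases (11.9%, against 1.45% of all coding genes). These 8 genes are clustered and shared 4 regions, so they are not 8 separate cases. The widest of the 4 (1954 bp, chr3:96219692-96221645) held the starts of *Hist2h2ab*, *Hist2h2ac* and *Hist2h2be*. The others lay at *Hist1h2be* with *Hist1h1e* (1865 bp), at the linker histone gene *Hist1h1c* (1727 bp) and at *Hist1h2bn* with *Hist1h2ak* (1524 bp). Of 385 genes with a *Zfp* symbol, 3 had a broad region (0.779%, against 1.45% of all coding genes) and 236 a narrower one (61.3%, against 39.2%). The 3 were *Zfp335*, *Zfp646* and *Zfp668*, the last 2 at 1 region. Zinc finger genes with other symbols, such as *Egr1*, are not in this count. Among 26 immediate-early genes, *Egr1* and *Atf3*, which encode stress- and growth-factor-induced transcription factors, had a broad region and 19 a narrower one.

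The progesterone receptor gene *Pgr* was the only broad member among 40 transcription factors of the reproductive tract mesenchyme, of which 7 had a narrower region. Its region (chr9:8900083-8902066, 1984 bp, the 21st widest) began 385 bp upstream of the start and ran 1598 bp into the gene. It had the lowest mean pileup of all 266 members. Its scaled pileup (fragments over the highest summit per 1000000 fragments of the library) was 0.657, 0.717 and 0.584 in PBRM1 replicates 1 to 3 and 0.881, 0.840 and 0.865 in the BRG1 replicates. All 3 BRG1 values exceeded the PBRM1 values, but the log2 difference of 0.41 ± 0.23 (SE) did not pass the limma test over all regions (Benjamini-Hochberg adjusted p = 0.122). The direction turned on other scales, to −0.06 with each library centred on its median and to −0.265 by the fold enrichment of the authors. In counts of fragments these were 12 to 14 in each of the 6 libraries, and their summits were spread over 1503 bp. No base of the region was under a peak in all 6 libraries, and the longest run of peaks was 560 bp with PBRM1 and 1151 bp with BRG1.

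Signal was compared between libraries as this scaled pileup. Each library gave its own highest summit, and these summits spanned a median of 466.5 bp in broad and 212 bp in narrower regions. A difference between antibodies thus need not refer to the same position. A pileup averages over cells, so fewer bound cells and less binding per cell cannot be told apart. The libraries held 18126049 to 23992352 fragments with PBRM1 and 14284532 to 15897724 with BRG1, so depth differed between the antibodies in every library. Median scaled pileup over the broad regions was 1.47, 1.49 and 1.25 in PBRM1 replicates 1 to 3 and 2.01, 1.96 and 2.19 in the BRG1 replicates. In fragments, before scaling, the medians were 29, 27 and 30 with PBRM1 and 32, 28 and 33 with BRG1, so the groups overlapped. The part of depth in the differences below was not tested.

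Broad regions were not far above the narrower ones in signal. The medians of the narrower regions were 1.36, 1.32 and 1.13 with PBRM1 and 1.95, 1.82 and 2.00 with BRG1, each below that of the broad regions in the same library. The fold enrichment over the local background went the other way. Its median was 4.56 to 4.80 in broad and 4.80 to 5.21 in narrower regions with PBRM1, and 5.20 to 5.58 against 5.67 to 6.16 with BRG1, lower in the broad regions in each of the 6 libraries. With no control file, that background comes from the same library and can hold signal of a wide region itself. The part of this in the lower ratio was not tested.

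The highest member lay at *Gm26917* (chr17:39843091-39846785), a noncoding RNA model whose region overlaps *Rn18s-rs5*, a pseudogene of the ribosomal RNA gene family. Its scaled pileup was 19.9, 20.7 and 15.8 in the PBRM1 libraries and 37.7, 31.6 and 37.0 in the BRG1 libraries. Its geometric mean of 25.7 was far above that of the next member (4.67, at *Hjurp*), and the BRG1 libraries were all above the PBRM1 libraries. The highest summit lay 1544 to 1565 bp downstream of the annotated start in the 3 PBRM1 libraries and 735 to 742 bp upstream of it in the 3 BRG1 libraries. The log2 difference was 0.92 ± 0.11 (limma adjusted p = 7.9e-10, and 0.000619 in a limma fit without trend). By the fold enrichment of the authors, however, the difference turned to −0.09. Reads of repeated DNA can pile up on 1 copy in the reference genome, and the part of this in the values was not tested.

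The region at *Gm10717* on chromosome 9 (chr9:3023865-3026023) was also repetitive, with 97.5% of its bases soft-masked as repeats in the reference. It was the only member more than 50% masked. Its scaled pileup was 4.65, 5.08 and 5.09 with PBRM1 and 3.71, 3.22 and 3.13 with BRG1, the reverse of the usual order. Without these 2 regions, 264 members remained, and their median width was 1631 bp.

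The highest members outside repeats had more usual promoters. At *Hjurp*, which encodes the chaperone that loads the centromeric histone CENP-A, scaled pileup was 4.497, 3.59 and 3.50 with PBRM1 and 5.72, 5.11 and 6.32 with BRG1. At *Ddx54*, for a DEAD-box RNA helicase, it was 4.35, 4.08 and 2.54 with PBRM1 and 5.28, 5.11 and 5.39 with BRG1. At *Cep57*, for a centrosomal protein, it was 3.03, 3.31 and 2.83 with PBRM1 and 4.97, 4.34 and 4.92 with BRG1. In each of these 3 genes the BRG1 values all lay above the PBRM1 values, as at 74.8% of members and 56.7% of all regions. At *Srgap2* the values were 2.73, 3.75 and 3.17 with PBRM1 and 3.59, 4.27 and 3.86 with BRG1, and the groups overlapped. By the test below, 69.9% of all members and 52.8% of all regions in the 6 lists were higher with BRG1. Of the 12 highest members, 10 were higher, *Gm10717* was lower and *Srgap2* was not called. The others, in falling order, were *Selenoi*, for a phospholipid-synthesis enzyme, *9130023H24Rik*, *Fbrs*, the splicing factor gene *Cwc22*, *Abhd11* and *Cactin*. Their log2 differences ranged from 0.38 ± 0.16 (*Fbrs*) to 0.80 ± 0.16 (*9130023H24Rik*).

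Only *Gm26917* and *Gm10717* were among both the 12 widest and the 12 highest members. At *Tmem43* the scaled pileup was 1.67, 1.16 and 1.46 with PBRM1 and 2.52, 2.17 and 2.26 with BRG1. At *Ppp2r3d* it was 2.32, 2.10 and 1.71 with PBRM1 and 2.52, 2.87 and 2.59 with BRG1. At *Thsd7a* it was 1.11, 1.05 and 0.750 with PBRM1 and 1.01, 1.19 and 1.397 with BRG1. The BRG1 values lay above the PBRM1 values at *Tmem43* and *Ppp2r3d* and overlapped them at *Thsd7a*. Of the 12 widest, 9 were called higher with BRG1, *Gm10717* lower, and *Ppp2r3d* and *Thsd7a* were not called (log2 differences 0.39 ± 0.18 and 0.31 ± 0.22). The largest differences among the 12 were at *Acbd5* (0.93 ± 0.20), *Gm26917* and *Clk3* (0.77 ± 0.19).

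**Figure D3:**
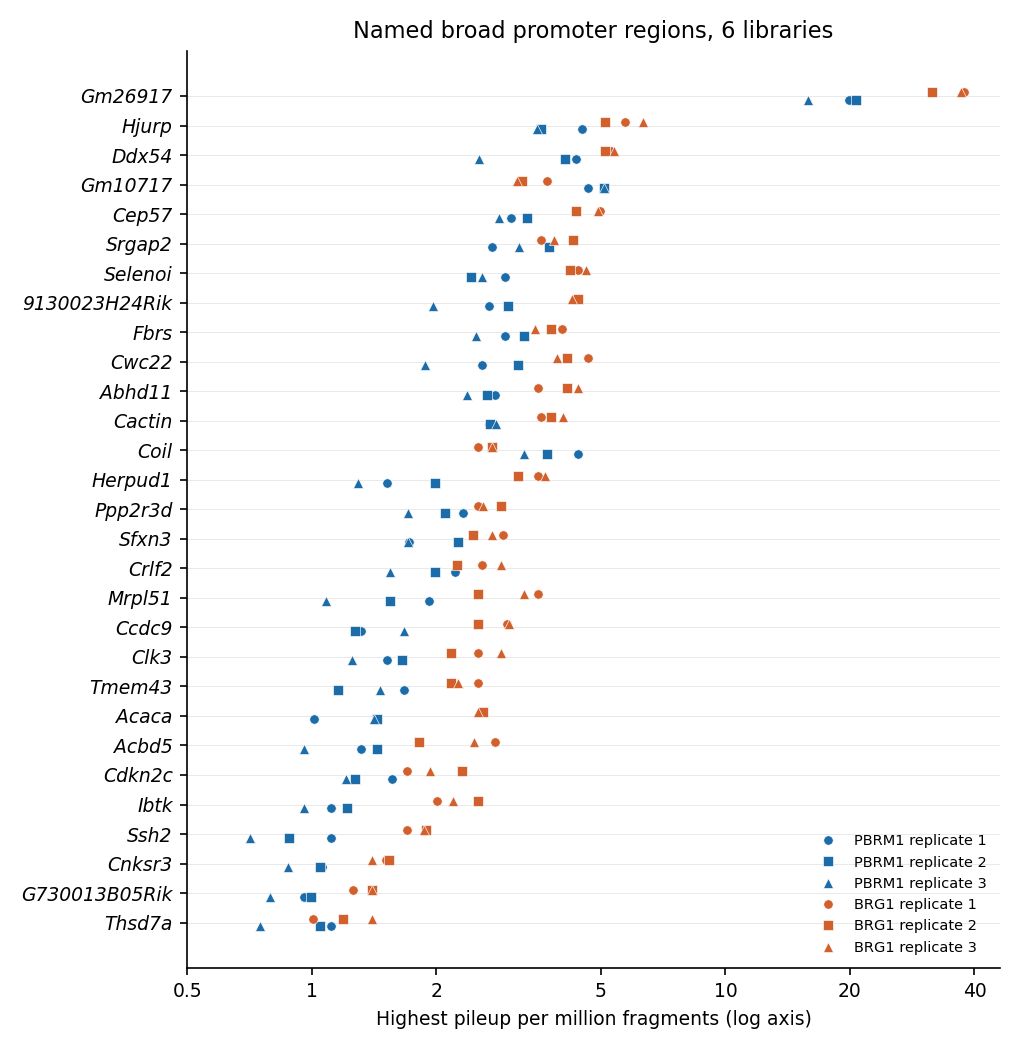
Highest pileup per 1000000 fragments (horizontal axis, log scale) in each of the 6 libraries for the 29 members named for width, level or difference between antibodies; blue marks PBRM1, orange BRG1, and the marker shape gives the replicate. BRG1 points lie to the right of PBRM1 points for most genes, the order is turned for *Gm10717* and *Coil*, and *Gm26917* stands apart from the rest.

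The question whether the antibodies differed at the broad regions was addressed with limma on log2 scaled pileup over all 12655 regions present in the 6 lists, with Benjamini-Hochberg adjustment over all of them. BRG1 was higher at 186 of the 266 members (69.9%) and lower at 2 (0.752%), and 78 did not pass an adjusted p of 0.05. Over all 12655 regions, 52.8% were called higher and 0.419% lower. The share among the narrower promoter regions was 69.4%, so the broad regions differed from the background much as other promoters did, and distal regions had 22.2%. The 3 BRG1 values lay above the 3 PBRM1 values at 199 members (74.8%), against 56.7% of all regions. The median difference was 0.575 (1.49-fold) in broad, 0.587 in narrower and 0.274 in distal regions, on the log2 scale, and 0.484 (1.4-fold) over all regions.

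This general shift carried most calls. When each library was centred on its own median, 5 members remained higher with BRG1 (1.88%, against 2.47% of all regions) and 2 lower (0.752%, against 2.29%). Antibody efficiency and depth cannot be told apart from such a shift. The fold enrichment of the authors called 17 members higher and 1 lower, against 1330 and 28 of all 12655 regions. PBRM1 replicate 3 had the lowest median scaled pileup and the most fragments. Leaving it out left 130 members higher, against 4888 of all regions, which had 6683 with all 6 libraries. Among the widest and highest members, *Crlf2* (0.28), *Cdkn2c* (0.48), *Cnksr3* (0.49), *G730013B05Rik* (0.47), *Ddx54* (0.32) and *Fbrs* (0.28) then did not pass, with the log2 difference in parentheses. Other single libraries also decided calls. Without BRG1 replicate 1, *Crlf2* (0.42), *Cnksr3* (0.57), *Sfxn3* (0.46) and *Fbrs* (0.33) lost theirs, without BRG1 replicate 2, *Cdkn2c* (0.44), *G730013B05Rik* (0.54) and *Fbrs* (0.37), and without BRG1 replicate 3, *Crlf2* (0.34), *G730013B05Rik* (0.54), *Fbrs* (0.44) and *Cactin* (0.44). Leaving out PBRM1 replicate 1 took the call from *Fbrs* (0.39) and gave it to *Ppp2r3d* (0.49), and leaving out PBRM1 replicate 2 took it from *Crlf2* (0.46).

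**Figure D4:**
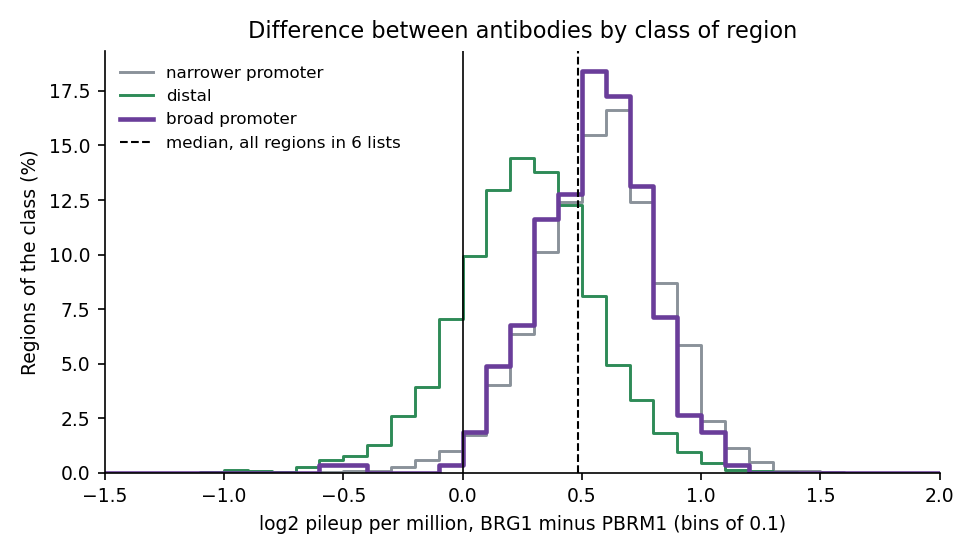
Distribution of the log2 difference in pileup per 1000000 fragments, BRG1 minus PBRM1 (horizontal axis, bins of 0.1), as a percent of the regions of each class (vertical axis); purple marks the broad regions, grey the narrower promoter regions and green the distal regions. Broad and narrower regions have nearly the same distribution (medians 0.575 and 0.587), to the right of the distal regions (0.274), and the dashed line is the median of all regions (0.484).

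The 5 members that were higher with BRG1 both before and after centring were *Gm26917*, *Herpud1*, *Mrpl51*, *Got1* and *Hnrnph1*. *Herpud1*, which encodes an endoplasmic reticulum protein of the unfolded protein response, had a scaled pileup of 1.52, 1.99 and 1.29 with PBRM1 and 3.52, 3.15 and 3.66 with BRG1. The groups were well separated, with a log2 difference of 1.13 ± 0.18 (limma adjusted p = 1.28e-06) and of 0.66 after centring (adjusted p = 0.00851). *Mrpl51* had 1.92, 1.54 and 1.08 with PBRM1 and 3.52, 2.52 and 3.26 with BRG1, a log2 difference of 1.06 ± 0.19 (limma adjusted p = 8.9e-06). *Got1*, for cytosolic aspartate aminotransferase, and *Hnrnph1*, for an RNA-binding splicing regulator, differed by 0.97 ± 0.18 and 0.94 ± 0.17 (limma adjusted p = 1.38e-05 and 7.66e-06). After centring, their adjusted p-values were 0.0435 and 0.0455.

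The other 4 of the 6 members with the largest BRG1 excess lost the call after centring. They were *Ibtk*, an inhibitor of Bruton tyrosine kinase (log2 difference 1.04 ± 0.20), *Ssh2*, a cofilin phosphatase (1.03 ± 0.21), *Acaca*, the acetyl-CoA carboxylase that makes malonyl-CoA for fatty acid synthesis (1.01 ± 0.19), and *Ccdc9* (1.00 ± 0.18). Their adjusted p-values by limma were at most 7.06e-05 before centring and between 0.0504 and 0.0751 after it. By fold enrichment, *Ibtk* (0.781), *Ssh2* (0.701) and *Acaca* (0.581) kept the call, and *Ccdc9* (0.291) did not. At *Acaca* the 3 BRG1 values, 2.53 to 2.59, lay above the PBRM1 values of 1.01 to 1.43.

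Besides *Gm10717*, with a log2 difference of −0.56 ± 0.15 (limma adjusted p = 0.00189), the only member lower with BRG1 was named by *Coil*, which encodes coilin of Cajal bodies. This region (chr11:88967875-88969425, 1551 bp) ended 827 bp upstream of the start of *Coil*. Its scaled pileup was 4.40, 3.696 and 3.25 with PBRM1 and 2.52, 2.73 and 2.73 with BRG1. The groups did not overlap, with a log2 difference of −0.50 ± 0.16 (limma adjusted p = 0.00863), and of −0.96 after centring. Without PBRM1 replicate 1, the difference was −0.38 and was not called (adjusted p = 0.0616). By fold enrichment, however, *Coil* changed sign, to 0.11. Its base composition was unlike that of most members, with 40.04% GC and a ratio of observed to expected CpG of 0.129.

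In the gene lists, 4 of the 4 histone regions passed the test as higher with BRG1, with log2 differences from 0.58 to 0.60. Among all members 69.9%, and among all regions 52.8%, passed as higher. None of the 4 passed by fold enrichment, and 3 of them rested on single libraries. *Hist1h2be* lost the call without PBRM1 replicate 1 (0.51) or BRG1 replicate 1 (0.54), and *Hist1h1c* without PBRM1 replicate 2 (0.42) or BRG1 replicate 1 (0.47). *Hist1h2bn* lost it without PBRM1 replicate 3 (0.28), BRG1 replicate 1 (0.56) or BRG1 replicate 2 (0.54). *Hist2h2ac* passed without any 1 library. Of the *Zfp* regions, *Zfp335* (0.54 ± 0.21) lost the call without PBRM1 replicate 3 (0.33), BRG1 replicate 1 (0.41) or BRG1 replicate 2 (0.53), and *Zfp646* (0.60 ± 0.20) without BRG1 replicate 3 (0.46). By fold enrichment *Zfp335* changed sign, to −0.04.

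*Atf3* was higher with BRG1 (2.83, 2.32 and 1.96 with PBRM1, 3.77, 4.13 and 4.39 with BRG1, log2 difference 0.80 ± 0.17, limma adjusted p = 7.95e-05). *Egr1* had 2.27, 2.15 and 1.75 with PBRM1 and 3.08, 2.10 and 2.93 with BRG1, overlapping groups and an adjusted p by limma of 0.0633. Its log2 difference of 0.38 ± 0.18 turned to −0.08 after centring and to −0.23 by fold enrichment. *Ezh2*, for the histone methyltransferase of the Polycomb repressive complex, was higher with BRG1 by 0.80 ± 0.19 (limma adjusted p = 0.000534). Its BRG1 value in replicate 3, 3.46, stood above the others (2.08 and 2.03), which were above the PBRM1 values of 1.38 to 1.47. *Atf3* and *Ezh2* passed without any 1 library. By fold enrichment *Ezh2* passed (0.515, limma adjusted p = 0.0476) and *Atf3* did not (0.258, limma adjusted p = 0.327). The same held by summed pileup times length (limma adjusted p = 0.0144 for *Ezh2* and 0.0759 for *Atf3*). None of these list members was called after centring.

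The base composition of the broad regions resembled that of other promoters. Median GC content was 58.5% in broad and 60.0% in narrower regions, with a median ratio of observed to expected CpG of 0.719 and 0.732. Criteria for a CpG island (at least 200 bp, more than 50% GC and a ratio above 0.6) were met by 202 members (75.9%), 75.5% of narrower regions and 5.18% of distal regions. In 500 bp around the start site, a window chosen after the data were seen, 85.2% of the broad and 82.6% of the narrower regions met them. Members that met the criteria were higher with BRG1 in 76.7% of cases (155 of 202) and the others in 48.4% (31 of 64), against 52.8% of all regions. Their median log2 differences were 0.594 and 0.425. The median scaled pileup also differed (1.75 and 1.6), and the part of this level in the split was not tested. The narrower promoter regions showed a like split (78.2% and 42.3%).

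**Figure D5:**
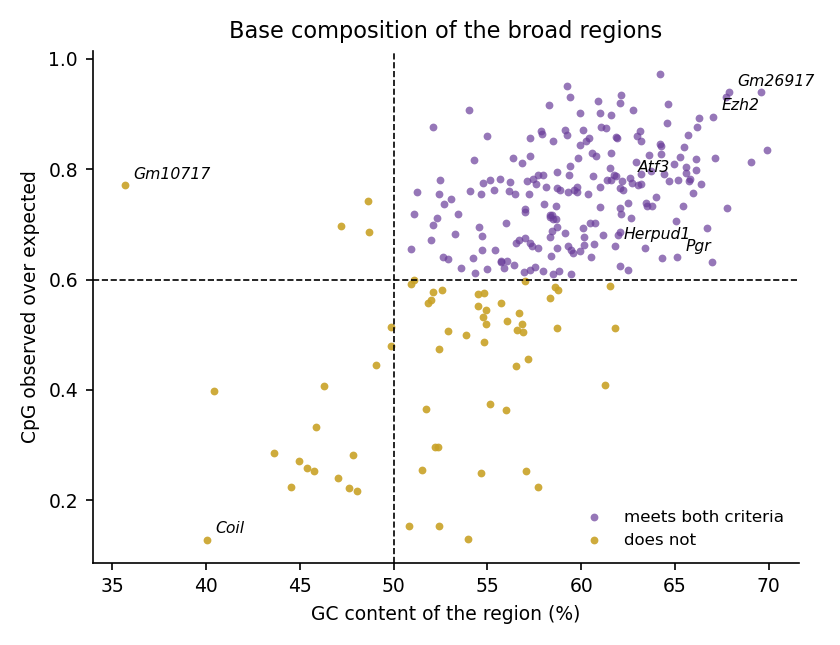
GC content (horizontal axis, percent) against the ratio of observed to expected CpG (vertical axis) for each of the 266 broad regions; purple points meet the CpG island criteria, whose limits of 50% and 0.6 are the dashed lines, and yellow points do not. Most members, including *Pgr*, *Atf3*, *Ezh2* and *Herpud1*, lie in the upper right, and *Gm10717* (GC content 35.7%) and *Coil* (ratio 0.129) lie outside it.

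Short sequences were searched for on both strands within 250 bp of each midpoint, and again within 250 bp of the start site, an alternative added after the data were seen. General promoter elements were CCAAT for the CCAAT box, GGGCGG for the GC box, TATAAA for the TATA box and TGACGTCA for the cAMP response element. Factor sites were CACGTG for the E-box, TGANTCA for AP-1, GCATGCGC for NRF1, CCGGAAGT for ETS factors, AAGATGG for YY1 and GGAATG for TEAD factors, with the CArG box. Those of the cAMP response element, the E-box and AP-1 read the same on both strands, and matches of different sequences could overlap. The GC box was the most common, in 69.2% of the broad regions (95% Wilson interval 63.4% to 74.4%), in 74.3% of the narrower regions and in 53.5% of the 20807 windows at coding gene starts. Around the start site it was in 76.95% of broad and 79.7% of narrower regions. The CCAAT box was found in 35.7% of broad (30.2% to 41.6%), 48.6% of narrower and 46.2% of distal regions. Around the start site this gap narrowed to 43.6% (37.5% to 49.9%) of broad and 48.5% of narrower regions.

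The AP-1 site was more frequent in distal regions. It was present in 9.40% of broad regions (6.45% to 13.5%), 10.9% of narrower and 52.6% of distal regions, and in 9.55% of coding start windows. The TEAD site followed the same order, with 18.05% of broad (13.9% to 23.1%), 19.3% of narrower and 40.5% of distal regions. The NRF1 sequence was in 3 broad regions (1.13%, 0.384% to 3.26%) and in 6.68% of narrower regions, and around the start site in 9 (3.704%, 1.96% to 6.89%) and 7.12%. The CArG box was in 5 broad regions (1.88%, 0.806% to 4.32%), 2.09% of narrower regions and 1.94% of coding start windows. Around the start site it was in 9 broad regions (3.704%, 1.96% to 6.89%) and 1.67% of narrower regions, so its order turned with the window.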

How the data were processed

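The members, gene lists and short sequences were chosen with earlier results of these data known. Per the labels, the authors used cutadapt, Bowtie2 and MACS2 with GRCm38.p5. The order and settings of the first 2 tools are not given in the sources used here. Per the file headers, narrow peaks were called by the authors with MACS 2.2.7.1, given fragments of read pairs, a q of 0.05 and no control file. The deposited pileup is a signal (fragment coverage at the summit, without scaling to depth), their fold enrichment as deposited is a ratio to the local background of the library, and the deposited −log10 q is its significance. From these, pileup per 1000000 fragments of the header was computed for the highest peak of each library in each region. All 6 libraries entered each fit, except where 1 was left out. Alternatives changed the merging gap, peak threshold, distance to the start, minimum width, scaling, measure, replicate block, trend and sequence windows. The lists that the authors called on pooled replicates were used only for the number and length of pooled peaks.

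Differences between antibodies were tested with limma 3.58.1 (lmFit and eBayes with trend, R 4.3.3) on log2 values with no pseudocount, since each region had a peak in each library. A region without a peak in a library has no deposited value, and levels below the calling threshold are thus not seen. Distances were compared by exact permutation with scipy 1.17.1. Nothing in the labels says that replicates came from separate animals, so p-values measure the spread between these libraries. Intervals cover counting error only. Genes were named by the nearest protein-coding start within 2 kb, otherwise by the nearest gene. Values are given for the 12 widest and 12 highest members, up to 6 with the largest differences in each direction, list members and 3 regions on each side of the width threshold. *Got1* and *Hnrnph1* are named as part of a count of 5. Coordinates are 1-based on GRCm38, and no peak ended beyond a chromosome of that build.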

Additional observations from a re-analysis of the deposited data

How the results depend on the processing

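The number of broad regions was 266. It was 135 with only peaks of −log10 q of at least 5, 19 with a width of at least 2000 bp and 74 where a single peak had to reach 1500 bp, and it ranged from 190 to 222 when each library was left out. Merging peaks up to 100 bp apart gave 317, a limit of 1 kb to the start 253, and coding starts only 243. Members higher with BRG1 numbered 186 of 266 (6683 of all 12655 regions). They numbered 5 after centring each library (312 of all regions), 17 by fold enrichment (1330) and 89 by summed pileup times length (1733). With the stricter peaks they were 107 of 135 (4508 of all 6424 regions). Leaving out each library gave 130 to 176 (4888 to 6315 of all regions), and a fit without trend 173 (6592). Members lower with BRG1 numbered 2 (53 of all regions), and 1 by fold enrichment (28). Without the ribosomal DNA and satellite regions, 1 of 264 members was lower and 185 were higher. When each library was left out, 1 to 2 members were lower (30 to 66 of all regions). The value of 1 came without PBRM1 replicate 1, where *Coil* lost the call. Centring removes the general shift by construction, and the cause of the other changes was not tested.

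With the replicate number as a block, 176 members were higher and 2 lower, against 6470 and 49 of all 12655 regions. Of the 29 members named with values, *Crlf2* and *Fbrs* lost the call. The sample titles do not say whether libraries with the same number share cells. Deviations of same-numbered libraries from their group means had correlations of 0.000218, 0.00189 and −0.0297, and differently numbered ones −0.0299 to 0.0307. These cannot decide the question, since a shift common to all regions of a library drops out of a correlation.

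The difference in the median summit distance was 23.3 bp, 5.33 bp with the start of any gene, −37.7 bp with the mean of all summits (the cause was not tested) and 14.8 to 36.8 bp when each library was left out. The share of members that met the CpG island criteria was 75.9%, 73.7% in 500 bp around the midpoint and 85.2% in 500 bp around the start. In a shorter window of 300 bp around the midpoint, which holds fewer matches by construction, the shares of broad regions were 22.6% for the CCAAT box, 56.0% for the GC box, 5.64% for the TATA box, 1.13% for the cAMP response element, 6.77% for the E-box, 4.51% for AP-1, 0.376% for NRF1, 3.76% for ETS and 10.5% for TEAD. Narrower regions then held the CCAAT box in 35.0%, AP-1 in 7.44% and TEAD in 12.2%, and distal regions AP-1 in 39.8% and TEAD in 28.5%. Of the members named for width, level, difference or a gene list, these changed sign after centring: *Ppp2r3d* (−0.0761), *Thsd7a* (−0.15), *Crlf2* (−0.0397), *Srgap2* (−0.18), *Fbrs* (−0.0854), *Pgr* (−0.0599) and *Egr1* (−0.0842). By fold enrichment the sign changed for *Gm26917* (−0.0936), *Ppp2r3d* (−0.24), *Crlf2* (−0.0464), *Srgap2* (−0.0495), *Abhd11* (−0.0416), *Cactin* (−0.0712), *Coil* (0.11), *Egr1* (−0.23), *Pgr* (−0.265) and *Zfp335* (−0.0393).

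Depth set a floor. A called peak needs enough fragments over its background, and the lowest member, at *Pgr*, rested on 12 to 14 fragments in each library. The IgG samples were not analysed here, so sites cut regardless of the antibody cannot be told apart from bound sites.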
